A study of Mus musculus with 24 samples.

Results

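The glucocorticoid receptor, the mineralocorticoid receptor and 7 genes that respond to glucocorticoids were followed through the day in the mediobasal hypothalamus of sleep-restricted and undisturbed mice. Of the 9 genes named, 8 had a probe set annotated to exactly 1 symbol, and all 8 were among the 11963 genes tested of 19938 on the array. The probe set of Cdkn1a, which encodes the cell cycle inhibitor p21, carried a second symbol, 4930567H12Rik, so it was not tested. Tissue came from mice whose background strain the labels spell C57BL76J; no genotype beyond the strain and no age is given. Mice under timed sleep restriction (TSR) were held awake by gentle handling from zeitgeber time (ZT, read as hours after lights on) 0 to 6. This was done on 5 days in a row, followed by 2 days of free sleep and 5 more days of restriction, while control mice (CON) were left alone in parallel. Each condition was sampled at ZT1, ZT7, ZT13 and ZT19 with 3 mice per group, which gives 8 groups and 24 arrays. On which day tissue was collected is not stated.

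Glucocorticoids are steroid hormones of the adrenal cortex whose blood level follows a daily rhythm, in nocturnal rodents with a peak near the start of the dark phase, and rises further under stress. They bind the mineralocorticoid receptor with high affinity and the glucocorticoid receptor with lower affinity, and the bound receptors enter the nucleus and act on genes such as Sgk1, Fkbp5, Tsc22d3 and Zbtb16. The hypothalamus is a site of negative feedback, where the hormone lowers the drive to its own release.

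Values are log2 probe-set signals, so a difference of 1 is a doubling. In 4 arrays the signals were compressed into a smaller range. These narrow arrays were TSR ZT1 replicate 3, TSR ZT13 replicate 2 and CON ZT19 replicates 2 and 3. Their interquartile range was 2.12 to 2.25 log2 units against 2.96 to 3.28 in the other 20, called typical here. Spearman's correlation with the other arrays, across all probe sets, had a median of 0.836 to 0.881 in the narrow and 0.976 to 0.986 in the typical arrays. The main differences are therefore given for all 24 arrays and for the 20 typical ones, while correlations, daily spans and counts of groups that do not overlap are over the typical arrays alone. In the latter set CON at ZT19 is a single array, whose spread is taken to be that of the remaining groups. Over all genes tested, the median of TSR minus CON came to -0.21 (ZT1), -0.18 (ZT13) and 0.59 (ZT19) with 24 arrays. With 20 arrays it came to 0.04, -0.0013 and 0.08. These are bulk samples, in which fewer cells of a type and less RNA per cell cannot be told apart, and the spread on which the p-values rest may be partly technical.

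Sgk1, a serine/threonine kinase that controls ion channels and transporters and a classical target of the receptors, showed the largest difference between conditions of the 8 genes in the typical arrays at ZT1, ZT7 and ZT19. In CON it read 6.91, 6.98 and 6.88 at ZT1, and 6.78, 6.91 and 6.76 at ZT7. It then stood at 7.88, 8.28 and 8.27 at ZT13, and at 6.73 in the typical array of ZT19, with 6.26 and 6.13 in the narrow ones. In control mice the 3 values of ZT13 were above every value of the other times. In TSR it read 8.09 and 7.95 at ZT1, with 6.41 in the narrow array, and 7.59, 7.60 and 7.70 at ZT7. At ZT13 it read 8.25 and 8.50, with 7.22 in the narrow array, and at ZT19 it read 7.51, 7.64 and 7.54. Typical TSR arrays at ZT1, ZT7 and ZT19 thus stood above every CON value of the same time, and at ZT13 the groups overlapped.

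One promoter of Sgk1 carries a full palindromic glucocorticoid response element (GRE), the sequence that a receptor dimer contacts, and is shown for that reason. The sequences are RefSeq's, build GRCm38.p6, and cover the 250 bases before the annotated start. Of 7 genes looked up (the 8 tested without Nr3c1), all but Zbtb16 had at least 1 such window. The letters searched, on both strands, were AGAACA, any 3 bases (NNN) and TGTTCT, and 3 of 32817 mouse promoter windows (0.00914%) hold them. Among the 6 windows of Sgk1, 1 is of these 3, and the match lies 189 to 175 bases before the start. It is set in capitals below, in chr10:21993640-21993889, plus strand.
Sgk1: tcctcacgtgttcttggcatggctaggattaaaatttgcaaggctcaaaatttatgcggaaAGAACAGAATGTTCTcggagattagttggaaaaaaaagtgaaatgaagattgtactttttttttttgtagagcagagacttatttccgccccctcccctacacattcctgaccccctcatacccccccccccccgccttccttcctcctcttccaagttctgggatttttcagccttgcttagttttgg
The same window holds the E-box CACGTG, a sequence bound by CLOCK and BMAL1 among other factors, at 246 to 241 bases before the start. CACGTG lies also in the 1 window of Fkbp5, and in 6.02% of all windows. None of the 3 windows of Tsc22d3, nor the single windows of Fkbp5, Nr3c2 and Mt2, hold the full GRE letters or a looser form, GNACA, NNN and TGTNC, which 0.387% of all windows hold. A match describes the letters of a window and shows no binding.

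In the typical arrays Sgk1 was 2.13-fold higher in TSR at ZT1, by 1.09 ± 0.11 log2 units (SE; limma adjusted p = 2.86e-06, n = 2 and 3). It was higher by 0.81 ± 0.10 at ZT7 (limma adjusted p = 3.28e-06) and by 0.83 ± 0.13 at ZT19 (limma adjusted p = 3.90e-04). At ZT13 the difference of 0.23 ± 0.11 did not pass (limma adjusted p = 0.082). Ordered by mean, the 8 groups ran from CON ZT19 through CON ZT7, CON ZT1, TSR ZT19, TSR ZT7, TSR ZT1 and CON ZT13 to TSR ZT13. Of neighbours in that order, CON ZT7 and CON ZT1 overlapped, as did TSR ZT19 and TSR ZT7, TSR ZT1 and CON ZT13, and CON ZT13 and TSR ZT13. The calls at ZT1, ZT7 and ZT19 held in each of 19 fits that left out 1 further array; the only typical CON array of ZT19, on which the last call rests, could not be left out. Over all 24 arrays, Sgk1 passed at ZT19 only, with 1.19 ± 0.33 (limma adjusted p = 0.0199). There the difference was 0.56 ± 0.33 at ZT1 and 0.81 ± 0.33 at ZT7, and its sign turned at ZT13, to -0.15 ± 0.33.

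**Figure D1:**
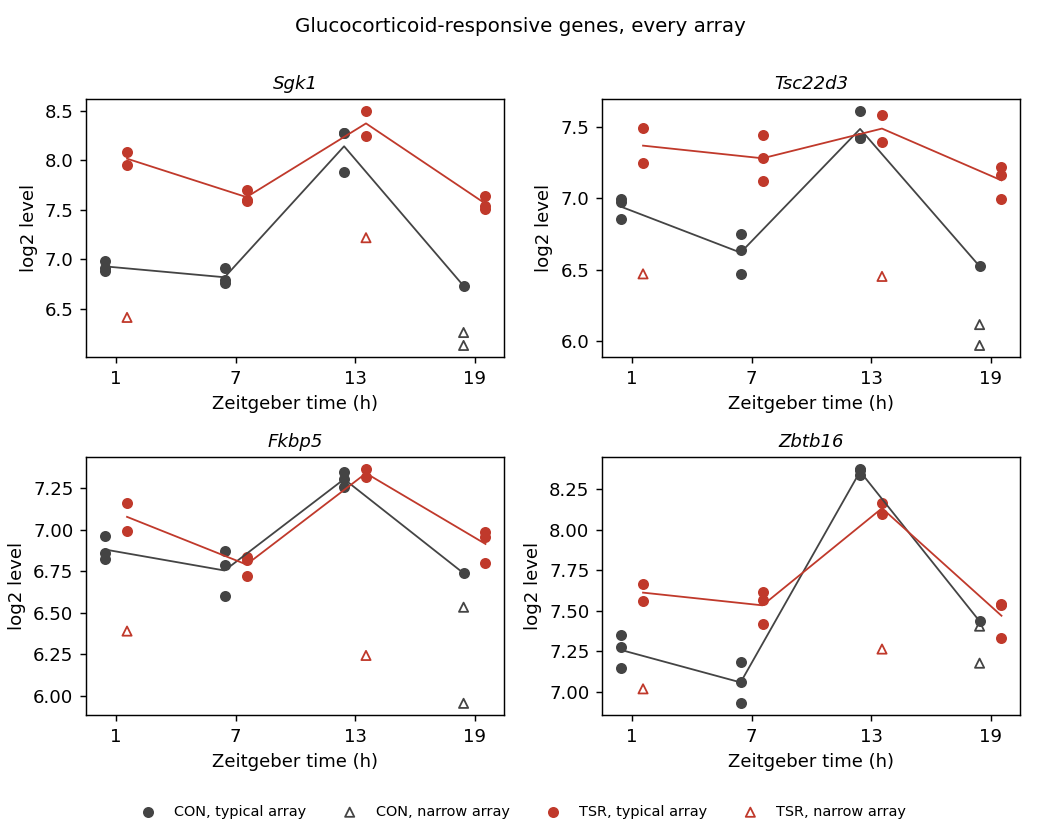
log2 level of Sgk1, Tsc22d3, Fkbp5 and Zbtb16 in every array against zeitgeber time in hours, CON in grey and TSR in red; filled circles are typical arrays, open triangles the 4 narrow arrays, and lines join the means of the typical arrays. In CON the typical values of all 4 genes are highest at ZT13; the TSR values of Sgk1 stand between 7.51 and 8.50 in typical arrays.

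Tsc22d3 encodes GILZ, a leucine zipper protein that carries part of the anti-inflammatory action of glucocorticoids. The CON values were 6.98, 6.85 and 6.99 at ZT1, 6.75, 6.64 and 6.47 at ZT7, and 7.42, 7.43 and 7.61 at ZT13. At ZT19 the typical CON array read 6.52 and the narrow ones 5.97 and 6.11. The CON values of ZT13 were again above all others of that condition. The TSR values were 7.24 and 7.49 at ZT1 (narrow 6.47), and 7.12, 7.44 and 7.28 at ZT7. It read 7.39 and 7.59 at ZT13 (narrow 6.45), and 7.22, 7.16 and 6.996 at ZT19. Typical TSR values were above all CON values at ZT1, ZT7 and ZT19, and the groups overlapped at ZT13. In the typical arrays the gene was higher in TSR by 0.43 ± 0.11 at ZT1 (limma adjusted p = 0.0198), 0.66 ± 0.10 at ZT7 (6.49e-05) and 0.60 ± 0.14 at ZT19 (0.00578), with 0.0024 ± 0.11 at ZT13 (-0.34 ± 0.25 over 24 arrays). The call at ZT1 was lost without TSR ZT1 replicate 2 (limma adjusted p = 0.266) or CON ZT1 replicate 2 (0.0611). Over 24 arrays it passed at ZT19 only (0.92 ± 0.25, limma adjusted p = 0.0197).

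Zbtb16 encodes the zinc finger transcription factor PLZF, whose transcript glucocorticoids raise in several tissues. In CON it read 7.35, 7.28 and 7.15 at ZT1, 7.19, 6.93 and 7.06 at ZT7, and 8.37, 8.33 and 8.37 at ZT13. At ZT19 it read 7.44 in the typical array, with 7.18 and 7.41 in the narrow ones. Under TSR it measured 7.66 and 7.56 at ZT1 (narrow 7.02), 7.57, 7.42 and 7.61 at ZT7, and 8.10 and 8.17 at ZT13 (narrow 7.26). At ZT19 it read 7.33, 7.54 and 7.54. At ZT13 all TSR values of Zbtb16 were below all CON values. Over the typical arrays TSR minus CON was 0.35 ± 0.09 at ZT1 (limma adjusted p = 0.0179) and 0.47 ± 0.08 at ZT7 (2.14e-04). It was -0.23 ± 0.09 at ZT13 (limma adjusted p = 0.0481), and 0.03 ± 0.12 at ZT19. The call at ZT13 was lost in 12 of 19 fits that left out 1 further array, and that at ZT1 in 3. Quantile normalization of these arrays ended the call at ZT1 (0.29 ± 0.10, limma adjusted p = 0.0613). Over 24 arrays it passed at none of the 4 times, and the difference at ZT13 was -0.51 ± 0.20.

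Fkbp5 encodes a co-chaperone that binds the receptor complex through Hsp90 and lowers its affinity for hormone, a short feedback loop, since the receptor induces the gene. CON arrays gave 6.82, 6.96 and 6.86 at ZT1, 6.60, 6.87 and 6.78 at ZT7, and 7.35, 7.30 and 7.26 at ZT13. At ZT19 it read 6.74 (narrow 6.53 and 5.96). TSR arrays gave 6.99 and 7.16 at ZT1 (narrow 6.39), 6.83, 6.82 and 6.72 at ZT7, 7.36 and 7.31 at ZT13 (narrow 6.24), and 6.98, 6.80 and 6.96 at ZT19. Fkbp5 passed at no single time in either set of arrays. In the typical arrays its differences were 0.20 ± 0.09 at ZT1, 0.04 ± 0.08 at ZT7, 0.04 ± 0.09 at ZT13 and 0.18 ± 0.12 at ZT19, with the smallest limma adjusted p at 0.173. Over 24 arrays they were -0.03 ± 0.24, 0.04 ± 0.24, -0.33 ± 0.24 and 0.50 ± 0.24. Typical TSR values at ZT1 and all TSR values at ZT19 lay above every CON value of that time. In the typical arrays the groups did not overlap in 52.3% of all genes at ZT1. At ZT19, where CON is 1 typical array, that share was 79.6%.

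The 2 receptors spanned small ranges over the day in the typical arrays. Nr3c1, the glucocorticoid receptor, read 7.90, 8.09 and 7.97 at ZT1, 7.95, 8.0004 and 7.68 at ZT7, and 7.67, 7.81 and 7.87 at ZT13 in CON. It read 7.92 at ZT19, with 6.45 and 6.07 in the narrow arrays. TSR arrays read 8.11 and 8.02 at ZT1 (narrow 6.90), 7.96, 8.01 and 7.91 at ZT7, 8.09 and 8.20 at ZT13 (narrow 7.04), and 8.25, 8.19 and 8.12 at ZT19. The conditions overlapped at ZT1 and ZT7. In the typical arrays it was higher in TSR at ZT13 by 0.36 ± 0.09 (limma adjusted p = 0.00369). At ZT19 the difference was 0.27 ± 0.12 (limma adjusted p = 0.0966). Over 24 arrays it was 1.37 ± 0.37 at ZT19 (limma adjusted p = 0.0197).

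Nr3c2, the mineralocorticoid receptor, read 6.97, 7.27 and 7.11 at ZT1, 7.04, 7.15 and 6.89 at ZT7, and 6.95, 7.25 and 7.23 at ZT13 in CON, with 6.81 at ZT19 (narrow 6.49 and 6.31). The TSR arrays gave 7.41 and 7.48 at ZT1 (narrow 6.17), 7.22, 7.40 and 7.24 at ZT7, 7.45 and 7.59 at ZT13 (narrow 6.49), and 7.54, 7.37 and 7.50 at ZT19. Typical TSR arrays were above all CON arrays at each of the 4 times. The difference passed at ZT13 (0.38 ± 0.11, limma adjusted p = 0.00722) and ZT19 (0.65 ± 0.14, limma adjusted p = 0.00269). It missed at ZT1 (0.32 ± 0.11, limma adjusted p = 0.0621) and ZT7 (0.26 ± 0.10, limma adjusted p = 0.0505), and passed at ZT7 with quantile normalization (0.28 ± 0.09, limma adjusted p = 0.0159). Both receptors lost the call at ZT13 without TSR ZT13 replicate 3 (limma adjusted p = 0.0554 for Nr3c1 and 0.0929 for Nr3c2). Over 24 arrays Nr3c2 passed at ZT19 only (0.93 ± 0.28, limma adjusted p = 0.0212).

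**Figure D2:**
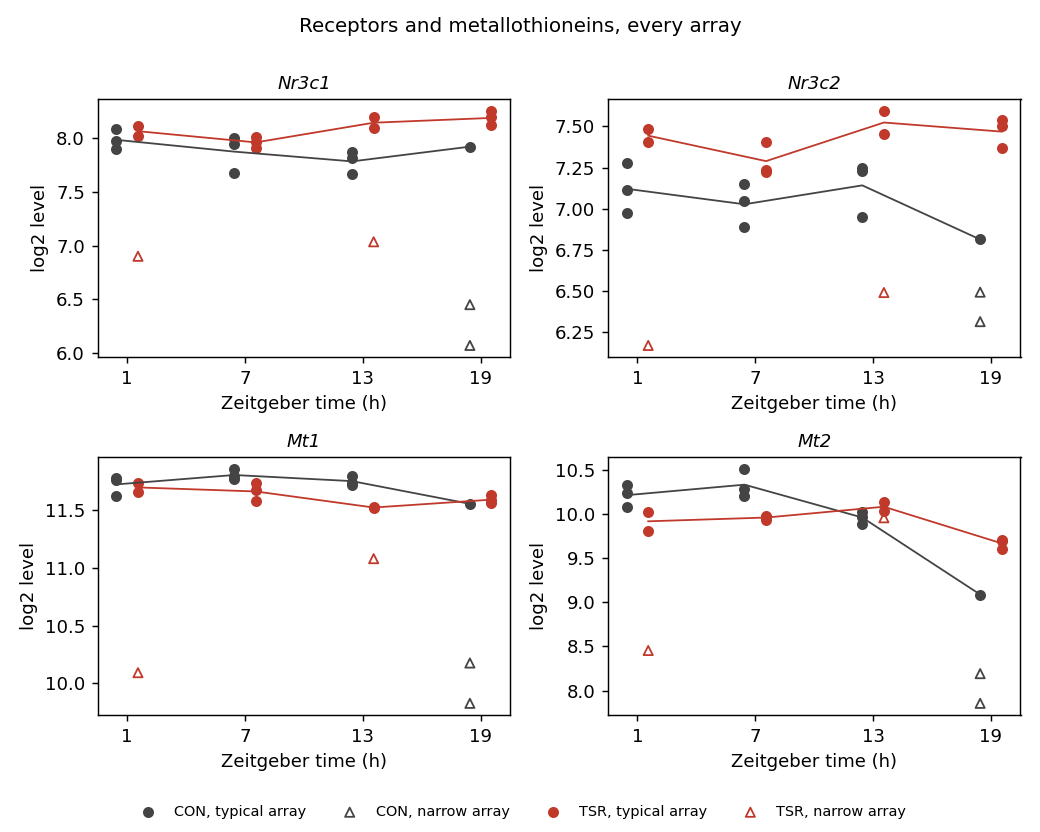
log2 level of Nr3c1, Nr3c2, Mt1 and Mt2 in every array against zeitgeber time in hours, CON in grey and TSR in red; filled circles are typical arrays, open triangles the 4 narrow arrays, and lines join the means of the typical arrays. Typical TSR values of Nr3c2 lie above CON at each time, and the typical CON value of Mt2 at ZT19, 9.09, is below its values at the other times.

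Mt1 and Mt2 encode metallothioneins, small cysteine-rich proteins that bind zinc and copper; their genes respond to metals through metal response elements (MRE) and to glucocorticoids. They are neighbours on chromosome 8, with starts 6471 bases apart on the same strand, and their windows are shown for the MRE each holds. Capitals mark the MRE core, TGCACNC or TGCGCNC on either strand. The windows are chr8:94178839-94179088 for Mt1 and chr8:94172368-94172617 for Mt2, both on the plus strand.
Mt1: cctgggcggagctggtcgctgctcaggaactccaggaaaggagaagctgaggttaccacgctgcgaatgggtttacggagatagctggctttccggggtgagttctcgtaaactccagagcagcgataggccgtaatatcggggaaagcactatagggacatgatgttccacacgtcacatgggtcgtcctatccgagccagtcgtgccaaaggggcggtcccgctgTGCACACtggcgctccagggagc
Mt2: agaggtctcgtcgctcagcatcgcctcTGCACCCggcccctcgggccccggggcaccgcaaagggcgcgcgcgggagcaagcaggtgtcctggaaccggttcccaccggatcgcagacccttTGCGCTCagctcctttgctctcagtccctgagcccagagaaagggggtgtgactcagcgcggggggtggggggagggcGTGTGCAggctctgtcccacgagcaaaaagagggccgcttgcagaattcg
The window of Mt1 holds 1 core and that of Mt2 holds 3; at least 1 is found in 21.4% of all windows and at least 3 in 1.26%. The window of Mt1 also holds the looser GRE form, 94 to 82 bases before the start. Of the other members' windows, only that of Nr3c2 holds an MRE core, 29 to 23 bases before the start.

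Mt1 stood high on its log2 scale at all times and in both conditions, and its differences depended on the scaling. Control mice had 11.79, 11.77 and 11.63 at ZT1, 11.86, 11.80 and 11.77 at ZT7, 11.74, 11.80 and 11.72 at ZT13, and 11.56 at ZT19 (narrow 10.18 and 9.83). Under restriction it read 11.66 and 11.74 at ZT1 (narrow 10.09), 11.58, 11.74 and 11.68 at ZT7, 11.53 and 11.52 at ZT13 (narrow 11.08), and 11.63, 11.56 and 11.59 at ZT19. TSR was below CON, without overlap, at ZT7 and ZT13. Over the typical arrays TSR minus CON was -0.14 ± 0.05 at ZT7 (limma adjusted p = 0.0394) and -0.23 ± 0.06 at ZT13 (limma adjusted p = 0.00243). The call at ZT7 was lost without TSR ZT7 replicate 1 (limma adjusted p = 0.201), TSR ZT7 replicate 3 (0.0735) or CON ZT7 replicate 1 (0.148). Quantile normalization of the typical arrays ended both calls, with -0.07 ± 0.06 at ZT7 and a turned sign, 0.01 ± 0.07, at ZT13. At ZT19 the difference was 0.04 ± 0.07 in the typical arrays, 0.23 ± 0.09 with quantile normalization of them (limma adjusted p = 0.045), and 1.07 ± 0.38 over 24 arrays (limma adjusted p = 0.0286).

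Mt2 changed direction between conditions over the day. In CON it read 10.32, 10.24 and 10.07 at ZT1, 10.20, 10.51 and 10.29 at ZT7, 9.96, 9.89 and 10.02 at ZT13, and 9.09 at ZT19 (narrow 7.86 and 8.19). Restricted mice had 9.81 and 10.02 at ZT1 (narrow 8.45), 9.97, 9.96 and 9.94 at ZT7, 10.13 and 10.03 at ZT13 (narrow 9.95), and 9.61, 9.70 and 9.69 at ZT19. All TSR values were below all CON values at ZT1 and ZT7, and above them at ZT19. Over the typical arrays TSR minus CON was -0.30 ± 0.09 at ZT1 (limma adjusted p = 0.0358) and -0.37 ± 0.08 at ZT7 (limma adjusted p = 0.00135). It was 0.58 ± 0.11 at ZT19 (limma adjusted p = 0.00143), which rests on 1 CON array. The call at ZT1 was lost without TSR ZT1 replicate 1 or 2, or CON ZT1 replicate 1 or 2, the highest limma adjusted p being 0.370. Over 24 arrays Mt2 passed at ZT19 (1.29 ± 0.33, limma adjusted p = 0.0197) and read -0.78 ± 0.33 at ZT1, which did not pass.

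Counted time by time in the typical arrays, 4 of the 8 genes passed at ZT1, where 9.96% of all tested genes passed. Of these 3 were higher in TSR and 1 lower, against 6.87% and 3.08% of all genes. At ZT7 it was 5 of 8 against 26.7%, with 3 higher (12.9% of all genes) and 2 lower (13.8%). At ZT13 it was 4 of 8 against 45.9%, with 2 higher (24%) and 2 lower (21.9%). At ZT19 it was 4 of 8 against 24.6%, all 4 higher (17.6%) and 0 lower (7.04%). The groups did not overlap in 6 of 8 genes at ZT1, as in 52.3% of all genes. The counts were 6 of 8 at ZT7 against 36.1%, 5 of 8 at ZT13 against 62.4%, and 7 of 8 at ZT19 against 79.6%. The members' shares at ZT13, called and not overlapping, were near those of all genes. So was the share not overlapping at ZT19, where CON is 1 typical array. Over 24 arrays, 0 of 8 passed at ZT1, ZT7 and ZT13 by limma, against 0.0502%, 0.46% and 0.418% of all genes. At an unadjusted limma p under 0.05 stood 1, 3 and 1 of the 8, and 489, 660 and 1632 of all 11963 genes. At ZT19 over 24 arrays 6 of 8 passed, all higher in TSR, against 55.3% of all genes, 44.1% being higher. Each of these 6 calls was lost without TSR ZT19 replicate 1 or 2 or CON ZT19 replicate 2 or 3, and that of Mt1 also without TSR ZT19 replicate 3 (highest limma adjusted p 0.122 to 0.159). Over all genes the count fell from 6621 to 1 without TSR ZT19 replicate 2. The median difference of the 8 genes there was 1.001 against 0.59 for all genes.

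**Figure D3:**
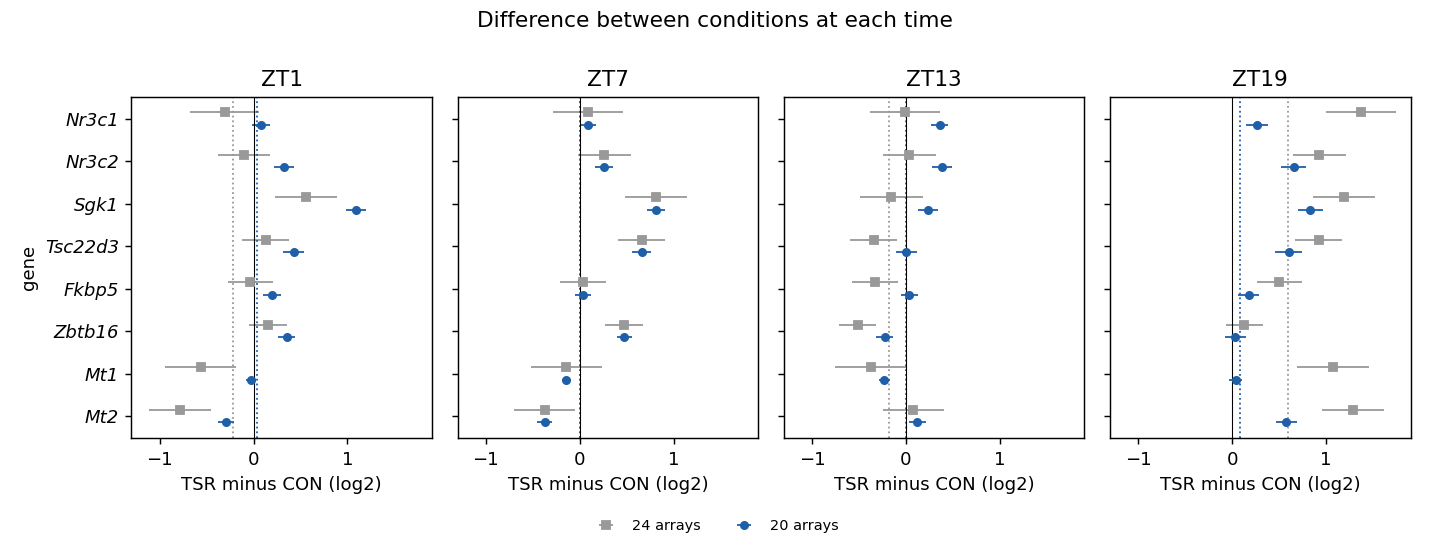
Difference between conditions (TSR minus CON, log2) for the 8 genes at each time, with the moderated standard error as bars; grey squares are the fit to 24 arrays, blue circles that to the 20 typical arrays, and dotted lines of the same colour mark the median difference over all genes. In the 20 arrays Sgk1 lies at 1.09, 0.81, 0.23 and 0.83, and the largest gaps between the 2 fits are those of Nr3c1, Mt1 and Mt2 at ZT19.

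Averaged over the 4 times, 6 of the 8 genes passed in the typical arrays, against 56.3% of all genes. Of these 5 were higher in TSR (33.5% of all genes) and 1 was lower (22.9%). Sgk1 was higher by 0.74 ± 0.06 (limma adjusted p = 4.66e-09), Tsc22d3 by 0.42 ± 0.06 (7.44e-06), Nr3c2 by 0.41 ± 0.06 (7.74e-06), Nr3c1 by 0.20 ± 0.05 (0.00191) and Zbtb16 by 0.16 ± 0.05 (0.00831). Mt1 was lower, by -0.09 ± 0.03 (limma adjusted p = 0.0131). Quantile normalization of the typical arrays ended the calls of Mt1 (-0.0013 ± 0.04, limma adjusted p = 0.976) and Zbtb16 (0.11 ± 0.05, limma adjusted p = 0.0618). Fkbp5, at 0.11 ± 0.05, did not pass (limma adjusted p = 0.0553), and passed without any of 5 single arrays (lowest adjusted p = 0.0288, without CON ZT7 replicate 2). Mt2 stood at 0.01 ± 0.05. In the typical arrays Sgk1 ranked 65 of 11963 genes by limma p in the average and 9 at ZT1. Over all 24 arrays it ranked 339 and 1307. Over 24 arrays 0 of 8 passed by limma, against 2.4% of all genes. An unadjusted limma p under 0.05 was held by 2 of the 8 and by 1931 of all 11963 genes. Sgk1 then stood at 0.60 ± 0.17 (limma adjusted p = 0.0585) and Tsc22d3 at 0.34 ± 0.12 (limma adjusted p = 0.158). With array weights over 24 arrays all 8 genes passed, each higher in TSR. Of all 11963 genes 9322 passed in that fit, 6958 higher and 2364 lower. The median difference over all genes there was 0.19. Mt1 then stood at 0.30 ± 0.04 (limma adjusted p = 2.94e-07), against the sign of its call in the typical arrays.

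Over the control day, time passed the test for the responsive genes and Mt2 and not for the receptors or Mt1, a contrast between genes that was not itself tested. With quantile normalization of the typical arrays it passed also for Nr3c1 (limma adjusted p = 0.0457) and Mt1 (0.0245), and with array weights over 24 arrays for all 8 genes. Of all 11963 genes, 4267 passed in the first of these fits and 10882 in the second. In CON the highest group mean fell at ZT13 for Sgk1, Fkbp5, Tsc22d3 and Zbtb16, as for 33.8% of all genes. In each of these responsive genes the lowest ZT13 value was above the highest value of any other time. From the lowest to the highest CON mean of the typical arrays Sgk1 spanned 1.41 log2 units (2.67-fold), Zbtb16 1.30, Tsc22d3 0.96 and Fkbp5 0.57. Mt2 spanned 1.24, with its highest mean at ZT7 (10.33) and its lowest at ZT19 (9.09). Its CON means at ZT1 and ZT13 were 10.21 and 9.96. Nr3c1, Nr3c2 and Mt1 spanned 0.20, 0.33 and 0.25. The lowest CON mean of Sgk1, Tsc22d3, Fkbp5, Mt2, Nr3c2 and Mt1 was the 1 typical array of ZT19. That array could not be left out, so these spans and the tests of time rest in part on it. In CON, time of day passed for 5 of 8 genes in the typical arrays (29.7% of all genes): Zbtb16 (limma adjusted p = 6.66e-09), Sgk1 (1.33e-08), Mt2 (1.06e-06), Tsc22d3 (1.47e-05) and Fkbp5 (2.15e-04). Over 24 arrays 2 of 8 passed, Zbtb16 (limma adjusted p = 0.00862) and Mt2 (0.0123), against 0.301% of all genes, with Sgk1 at 0.0531.

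In TSR the same 4 responsive genes again had their highest typical mean at ZT13, as did 20.9% of all genes. Nr3c2 had its highest mean there in both conditions, and Mt2 in TSR. Sgk1 spanned 0.81 log2 units, Zbtb16 0.66, Tsc22d3 0.36 and Fkbp5 0.55, against 1.41, 1.30, 0.96 and 0.57 in CON. There the low of each but Zbtb16 is the 1 typical array of ZT19. Time of day in TSR passed for 4 of 8 genes in the typical arrays (24.1% of all genes): Sgk1 (limma adjusted p = 5.56e-05), Zbtb16 (1.67e-04), Fkbp5 (0.00152) and Mt2 (0.00802). Tsc22d3 did not pass in TSR (limma adjusted p = 0.085). Over 24 arrays 0 of 8 passed by limma, against 0.125% of all genes. An unadjusted limma p under 0.05 was held by 0 of the 8 and by 354 of all 11963 genes.

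The difference between conditions varied with time for 4 of 8 genes in the typical arrays, where 29.6% of all genes passed. The limma adjusted p of the interaction was 1.50e-04 for Mt2, 0.00137 for Zbtb16, 0.00207 for Sgk1 and 0.0129 for Tsc22d3. That of Tsc22d3 was 0.0838 without TSR ZT13 replicate 1. For Sgk1 and Tsc22d3 the smallest of the 4 differences was at ZT13, the time of the control maximum. For Zbtb16 the sign turned there, and for Mt2 it turned between ZT7 and ZT13. Each difference at ZT19 rests on 1 typical CON array. Over 24 arrays 0 of 8 passed by limma (0.318% of all genes), and the smallest adjusted p was 0.12. An unadjusted limma p under 0.05 was found for 5 of 8, and for 4972 of all 11963 genes.

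Across the 20 typical arrays the levels of Sgk1, Tsc22d3, Fkbp5 and Zbtb16 were correlated. Pearson's r was 0.91 between Sgk1 and Tsc22d3, 0.85 between Sgk1 and Zbtb16, 0.82 between Fkbp5 and Zbtb16 and 0.79 between Sgk1 and Fkbp5. It was 0.78 between the 2 receptors and 0.56 between the 2 metallothioneins, and 0.21 between Sgk1 and Nr3c1. Nr3c2 stood at 0.65 with Sgk1 and 0.63 with Tsc22d3. With Sgk1, Mt1 had -0.33 and Mt2 -0.12; with Zbtb16 they had -0.22 and -0.19. These values describe 20 arrays that share the 2 conditions and 4 times. Of 11930 genes, the 3 most like Sgk1 over those arrays were Mertk (0.94), a receptor tyrosine kinase of phagocytes and astrocytes, Snord14e (0.94), a small nucleolar RNA, and Lifr (0.93), the receptor of leukemia inhibitory factor. Those most like Tsc22d3 were Sgk1 itself, Penk (0.89) and Dusp6 (0.88), and those most like Fkbp5 were Zbtb16, Zfp12 (0.82) and Snord14e (0.80). Kirrel2 (0.86), Ptk2b (0.86) and Mfsd2a (0.85) were most like Zbtb16. Nearest to Nr3c1 were Mdm4 (0.96), Inpp4b (0.95) and Ppil4 (0.94), and nearest to Nr3c2 were Phax, Babam2 and Arhgef6 (0.95, 0.95 and 0.94). For Mt1 they were Plvap (0.83), Ypel4 (0.82) and Mocs1 (0.81), and for Mt2 Ctsz (0.76), Rasl11b (0.75) and Emp2 (0.75).

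Other genes that respond to glucocorticoids did not move one way. Of 36 listed, 27 were tested, and 14 passed in the average over times of the typical arrays, 8 higher in TSR and 6 lower, where 56.3% of all genes passed, with a median difference of -0.01 against 0.03 for all genes. Mertk was higher by 0.61 ± 0.05 (limma adjusted p = 4.84e-09), the arrestin-domain gene Arrdc3 by 0.48 ± 0.05 and the astrocyte connexin gene Gjb6 by 0.33 ± 0.07. Angptl4, an inhibitor of lipoprotein lipase, was lower by -0.36 ± 0.10 (limma adjusted p = 0.00357) and the transcription factor gene Cebpb by -0.23 ± 0.08 (limma adjusted p = 0.022). By time, 5 were higher and 0 lower at ZT1 (9.96% of all genes passed), 3 and 3 at ZT7 (26.7%), 4 and 9 at ZT13 (45.9%), and 3 and 2 at ZT19 (24.6%). Over 24 arrays 0 of 27 passed in the average by limma, where 2.4% of all genes passed. An unadjusted limma p under 0.05 was found there for 5 of 27 and for 1931 of all 11963 genes. At ZT19 over 24 arrays 15 passed by limma, 11 higher and 4 lower, against 55.3% of all genes. In CON, time of day passed for 15 of the 27 in the typical arrays, against 29.7% of all genes. Over 24 arrays 0 did by limma, and 19 had an unadjusted limma p under 0.05, as did 5564 of all 11963 genes.

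Among the chaperones, co-regulators and steroid-handling genes 3 of 15 tested passed in that average of the typical arrays, 2 higher and 1 lower. The share of all genes that passed there, to set beside each count of this paragraph, was 56.3%, with 33.5% higher in TSR and 22.9% lower. Abcb1a, a transporter that exports steroids at the blood-brain barrier, was higher by 0.46 ± 0.07 (limma adjusted p = 3.65e-05) and also passed over 24 arrays (0.43 ± 0.09, limma adjusted p = 0.0141). The co-chaperone gene Dnajb1 was lower by -0.20 ± 0.06. Of 10 stress axis genes tested, 2 were higher and 3 lower. Pcsk1, the convertase that cleaves pro-opiomelanocortin, was higher by 0.86 ± 0.04 (limma adjusted p = 2.31e-11) and the vasopressin receptor gene Avpr1a by 0.38 ± 0.05. Adcyap1r1, the PACAP receptor gene, was lower by -0.40 ± 0.05, and the oxytocin gene Oxt by -0.23 ± 0.04. Crh and Pomc were not among the genes tested. Of 13 paralogs of the members, 3 were higher and 3 lower. Sgk3 was higher by 0.47 ± 0.06 (limma adjusted p = 2.34e-06) and Zbtb20 by 0.37 ± 0.05, while Tsc22d4 was lower by -0.22 ± 0.05.

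Lists tied to single members held calls in both directions. In the average of the typical arrays 33.5% of all genes were called higher in TSR and 22.9% lower. Of 13 genes of zinc and metal handling, 4 were higher and 1 lower in the average of the typical arrays, with the zinc importer gene Slc39a10 at 0.36 ± 0.03 and the iron exporter gene Slc40a1 at 0.40 ± 0.06. Mtf1, the metal-sensing factor that binds MREs, stood at -0.04 ± 0.06. Of 9 genes of Sgk1 substrates and sodium transport 2 were higher and 3 lower. The cotransporter gene Slc12a2 was higher by 0.42 ± 0.05 and the potassium channel gene Kcna3 lower by -0.30 ± 0.07. Of 11 targets of p53, the factor that induces Cdkn1a, 5 were higher and 2 lower. Over 24 arrays 1 of the 15 steroid-handling genes, Abcb1a, passed in the average by limma, where 2.4% of all genes did. Some genes are in more than 1 list, and Abcb1a is also among the endothelial and mural markers. Of the other 6 lists 0 genes passed in that average over 24 arrays. An unadjusted limma p under 0.05 was found for 5 of the responsive, 2 of the stress axis and 3 of the paralog genes. It was found also for 2 of the p53, 1 of the metal and 0 of the Sgk1 substrate genes, and for 1931 of all 11963 genes.

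Several lists of markers of cell types and neighbouring regions differed between conditions in the typical arrays. In the average there 56.3% of all genes passed, 33.5% higher in TSR and 22.9% lower. Of 9 arcuate and ventromedial markers tested, 9 were lower in TSR in the average of the typical arrays, and their mean log2 level over the typical arrays was 7.27 to 7.54 in TSR against 7.55 to 7.81 in CON. Cartpt, Ghrh, Kiss1 and Tac2, genes of arcuate neurons, were all above the filter on mean level; Agrp and Pomc were not among the genes tested. Of 10 oligodendrocyte markers, 8 were higher in TSR. Their mean was 9.67 to 9.70 at ZT1 in TSR against 9.11 to 9.13 in CON, 9.09 to 9.21 against 8.84 to 9.12 at ZT7, 9.05 to 9.22 against 8.90 to 9.03 at ZT13, and 8.58 to 8.70 against 8.47 at ZT19. Of 10 endothelial and mural markers 6 were higher and 2 lower, with means of 7.28 to 7.49 in TSR and 7.05 to 7.30 in CON. Of 11 astrocyte markers 3 were higher and 4 lower, of 5 microglial markers 1 and 1, and of 6 tanycyte and ependymal markers 2 and 4.

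Of 9 markers of cortex, thalamus and forebrain cholinergic neurons 8 were higher in TSR, with means of 7.05 to 7.56 in TSR and 6.19 to 7.29 in CON. Of 8 suprachiasmatic markers 7 were lower, and of 7 paraventricular and supraoptic markers 1 was higher and 5 lower. The shares of all genes called in that average were 33.5% higher and 22.9% lower. The 4 tested genes of the list of pituitary, plasma protein and choroid plexus, Alb, Apoa1, Serpina1c and Ttr, were all higher. Their mean was 8.47 to 8.65 at ZT1 in TSR and 5.34 to 5.62 in CON, but 6.71 to 6.81 in TSR at ZT7 against 7.46 to 7.79 in CON. The pituitary hormone genes Tshb, Cga, Prl and Gh were below the filter or carried no single symbol. Over 24 arrays 2.4% of all genes passed in the average. The markers that passed there were 1 of 9 arcuate and ventromedial, 1 of 10 endothelial and mural (Abcb1a) and 1 of 7 paraventricular and supraoptic. To these come 3 of 8 suprachiasmatic, 5 of 9 cortical, thalamic and cholinergic, and 3 of 4 of the last list. Of oligodendrocyte, astrocyte, microglial and tanycyte markers 0 passed there by limma. In these lists 1, 1, 0 and 3 genes had an unadjusted limma p under 0.05, as did 1931 of all 11963 genes. The part of these shifts in the differences of Sgk1, Tsc22d3 and the other genes was not tested.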

How the data were processed

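RNA of the mediobasal hypothalamus was hybridised after biotin labelling, per the labels' protocols. The values are log2 probe-set signals deposited by the authors, made with Affymetrix Expression Console per the submitters' processing notes; its version, the summarization and the array build are not stated there. The decimal point was restored in 1684 of 853344 cells (0.197%), none of a member, and 59 cells were set to missing. Each gene took the highest-mean probe set with exactly 1 symbol, and genes under the 40th percentile of mean level (5.84) were dropped. limma 3.58.1 in R 4.3.3 fitted 8 group means with empirical Bayes moderation and a trend, 2-sided; p-values were adjusted by Benjamini-Hochberg over 11963 genes, and an adjusted p under 0.05 passed. The script was tested on simulated data. Arrays with an interquartile range below 2.5 log2 units were called narrow. Alternatives covered arrays, quantile normalization, filter, probe sets, restored cells, array weights, the replicate number as a block, and leaving out single arrays. All members were named; of each list the 3 highest and 3 lowest by the average effect could be named, and for each member the 3 genes of highest correlation. Members, lists and tests were chosen with earlier results of these data known. Agrp, Pomc, Crh and the pituitary hormone genes are named without values.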

Additional observations from a re-analysis of the deposited data

Results flagged for a closer look

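In the 20 typical arrays the difference between conditions depended on the time of day for 4 of the 8 genes, by the test of the interaction itself. The limma adjusted p was 1.50e-04 for Mt2, 0.00137 for Zbtb16, 0.00207 for Sgk1 and 0.0129 for Tsc22d3, against 29.6% of all genes that passed. The test over typical arrays takes in ZT19, where CON is 1 array. The call of Tsc22d3 was lost without TSR ZT13 replicate 1. Over 24 arrays the limma adjusted p was 0.12 for Mt2, Zbtb16 and Tsc22d3 and 0.121 for Sgk1. No group holds more than 3 arrays, so single arrays were not screened as outliers within a group.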

How the results depend on the processing

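Leaving out the narrow arrays moved every count over all genes by more than 1.5 times, and the cause was not tested. Counts are in the order average over times, ZT1, ZT7, ZT13, ZT19, time of day in CON, time of day in TSR and interaction. They were 287, 6, 55, 50, 6621, 36, 15 and 38 over 24 arrays, and 6738, 1191, 3196, 5490, 2943, 3558, 2878 and 3544 without the narrow arrays. With both the narrow arrays left out and quantile normalization they were 7148, 1495, 3814, 5966, 3493, 4267, 3534 and 4323. Array weights gave 9322, 3119, 3747, 6004, 10019, 10882, 5834 and 10786. Quantile normalization alone gave 1068 for the average, 295 at ZT13 and 172 for time of day in CON. With no filter there were 193 in the average, 19 at ZT1, 15 at ZT13 and 19 in the interaction. With restored cells missing, time of day in CON gave 57. Quantile normalization of 24 arrays moved the share of calls higher in TSR from 30.7% to 40.4% in the average and from 66.7% to 44.4% at ZT1. In the typical arrays it moved from 69.0% to 47.0% at ZT1 and from 71.4% to 58.1% at ZT19. Of the members' 36 calls in the typical arrays, quantile normalization ended 5, and it added 5 among the 64 results.

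The main fits did not use replicate numbers as pairs. Over 24 arrays, deviations from group means in same-numbered arrays of different groups had a median r of -0.0051, with 25 of 84 pairs above 0.1. Arrays of unlike number had 0.0017, with 56 of 168 above 0.1. In the typical arrays the medians were 0.0298 (10 of 51 pairs above 0.1) and -0.0215 (21 of 103). Single same-numbered pairs ran from -0.86 to 0.87 over 24 arrays, so the check cannot exclude a pairing. With the number as a replicate block, 28 genes in place of 50 passed at ZT13, and no call of a member changed.

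Leaving out 1 array of 24 gave 156 to 1286 in the average, 1 to 9 at ZT1, 3 to 118 at ZT7, 7 to 411 at ZT13, 1 to 9338 at ZT19, 17 to 8397 for time in CON, 6 to 45 for time in TSR and 13 to 8345 for the interaction. The 1 at ZT19 is without TSR ZT19 replicate 2. From the 20 arrays the ranges were 267 to 1697 at ZT1, 1952 to 3623 at ZT19 and 1524 to 3750 for time in TSR.

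Several members' differences that were not called over 24 arrays turned sign. Without the narrow arrays, those at ZT1 were 0.20 (Fkbp5), 0.080 (Nr3c1) and 0.32 (Nr3c2), and those at ZT13 0.23 (Sgk1), 0.035 (Fkbp5), 0.0024 (Tsc22d3) and 0.36 (Nr3c1). With quantile normalization they were 0.043 (Mt1) in the average, 0.069 (Nr3c1), -0.011 (Nr3c2) and 0.021 (Mt1) at ZT13, and -0.24 (Zbtb16) at ZT19. With both, they were -0.0010 (Mt2) in the average, 0.14 (Fkbp5), 0.010 (Nr3c1) and 0.26 (Nr3c2) at ZT1, 0.22 (Sgk1), 0.32 (Nr3c1) and 0.015 (Mt1) at ZT13, and -0.068 (Zbtb16) at ZT19. With array weights they were 0.30 (Mt1) in the average, 0.20 (Fkbp5), 0.063 (Nr3c1) and 0.31 (Nr3c2) at ZT1, and 0.077 (Sgk1), 0.058 (Fkbp5) and 0.29 (Nr3c1) at ZT13. Of the values with array weights, that of Mt1 in the average passed (limma adjusted p = 2.94e-07). So did those of Nr3c2 at ZT1 (limma adjusted p = 0.00559) and Nr3c1 at ZT13 (0.00539). The value of Nr3c1 at ZT13 also passed without the narrow arrays, and with both changes.

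Over fits without 1 of the 24 arrays, the average ran from -0.021 to 0.18 for Mt2, -0.089 to 0.13 for Mt1 and -0.012 to 0.14 for Fkbp5. At ZT1 it ran from -0.084 to 0.43 for Tsc22d3, -0.19 to 0.20 for Fkbp5, -0.53 to 0.080 for Nr3c1 and -0.33 to 0.32 for Nr3c2. At ZT7 it was -0.039 to 0.096 for Fkbp5 and -0.013 to 0.15 for Nr3c1, over 24 as over 20 arrays. At ZT13 it was -0.17 to 0.38 for Nr3c2, -0.41 to 0.23 for Sgk1, -0.52 to 0.035 for Fkbp5, -0.56 to 0.0024 for Tsc22d3 and -0.22 to 0.36 for Nr3c1. From the 20 arrays it was -0.019 to 0.035 for Mt2 in the average, -0.077 to 0.015 for Mt1 at ZT1, -0.095 to 0.099 for Tsc22d3 at ZT13 and -0.0016 to 0.10 for Zbtb16 at ZT19. This last set of fits was added after the data were seen. Between 2 and 3 arrays per group, and 1 in CON at ZT19, limit the precision of every value.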

Other observations

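The probe set that carries both Cdkn1a and 4930567H12Rik was read as values only, since its signal cannot be assigned to 1 of the 2 genes. In CON it read 6.32, 6.15 and 6.15 at ZT1, 5.87, 5.67 and 5.64 at ZT7, 6.01, 6.02 and 6.11 at ZT13, and 5.52 at ZT19, with 5.96 and 5.72 in the narrow arrays. In TSR it read 6.33 and 6.29 at ZT1 (narrow 5.70), 6.34, 6.36 and 6.58 at ZT7, 6.42 and 6.37 at ZT13 (narrow 5.82), and 6.05, 5.98 and 5.92 at ZT19. The TSR values at ZT7 were all above the CON values of that time, by 0.70 between the means.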
